A study of Mus musculus with 8 samples.

Results

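Gene expression in clone 3, an edited clone of the mouse thymic epithelial line TEC71, was compared with the nickase control of the same line across all genes on the array. The comparison holds the 2 arrays titled as knock-in 3 and the 3 arrays titled as knock-in control, out of 8 arrays in the series. TEC71 is a cell line whose origin the labels give as medullary thymic epithelium. The control cells had received the Cas9 nickase, an enzyme that cuts a single DNA strand, together with a single guide RNA, and carry no stated mutation. Clone 3 carries a Gtf2i knock-in that the labels call T1211A, with no word on zygosity and none on whether the number counts bases or residues. Cells of both groups were grown as a monolayer in RPMI-1640 with serum, and 200 ng of total RNA was labelled for each array. Clone 3 is a single clone, and nothing in the sources used here says that arrays of a group came from separate cultures. The p-values therefore measure the spread between these arrays, which may be technical. By their position codes the control arrays all lay in row 1 of a slide and both clone 3 arrays in row 2, so clone and row cannot be told apart.

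TFII-I, the product of Gtf2i, is a transcription factor. It binds initiator and upstream elements of promoters, moves between cytoplasm and nucleus, and is phosphorylated downstream of growth factor and antigen receptors. Medullary thymic epithelial cells line the inner zone of the thymus, where they present self antigens to maturing T cells. Their differentiation depends on NF-kB signalling through receptors of the TNF family, and they secrete chemokines that draw thymocytes and dendritic cells.

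In bulk RNA, fewer cells of a type and less RNA per cell cannot be told apart. Levels are given as log2 signal relative to the 75th percentile of each array, and differences as clone 3 minus control on that log2 scale. The 5 arrays had a 75th percentile signal of 398.8 to 562.7 and 55.3% to 59.3% of probes well above background, and no spot was saturated. Pairs of arrays within a group correlated at 0.993 to 0.995 and pairs across the groups at 0.964 to 0.968. The markers of the labelled cell type were present in part. Krt14 and Krt5, keratins of basal and medullary epithelium, were among the bright signals, at 5.93 to 6.93 and 6.0 to 6.59 in the controls. Aire, Fezf2 and Cd40, which define mature medullary cells, were not tested, since a transcript was tested only where all control arrays or both clone 3 arrays read it well above background. Among markers of other cells, Ptprc, Adgre1 and Cd8a of leukocytes, Col1a1, Dcn and Pdgfrb of fibroblasts, and Cdh5, Kdr and Tek of endothelium did not reach that level either. Cd3e and Itgam of leukocytes, Pdgfra of fibroblasts and Pecam1 of endothelium did reach it. Of the listed markers, 13 of 30 of leukocytes, 14 of 27 of fibroblasts and 6 of 16 of endothelium were tested. The summed signal of the tested leukocyte markers was 9.5 to 12 times the 75th percentile in the controls and 12.8 to 12.9 in clone 3. That of fibroblast markers was 31.0 to 35.6 and 18.5 to 18.8, and that of endothelial markers 15.8 to 18.0 and 9.4 to 9.41. The part of such cells in the results was not tested.

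Of 25070 genes and unnamed transcripts tested, 7113 (28.4%) passed at an adjusted p of 0.05 (limma, Benjamini-Hochberg), 2906 higher and 4207 lower in clone 3. At least 2-fold differences numbered 1037 higher and 1582 lower. Among the 14622 genes with a symbol, 2259 (15.4%) were higher and 2066 (14.1%) lower, and the shares of gene lists given later are to be read against these. The higher share of all calls was 40.9%, and 51.6% when arrays were scaled to their median instead, which moved the median difference of all tested from -0.05 to 0.04. Without clone 3 replicate 2 the calls numbered 4049, against 4961 to 5246 without any 1 of the other arrays. Of 106 list counts (higher and lower for 53 lists), 41 moved by over 1.5 times without clone 3 replicate 2, 39 without clone 3 replicate 1, and 16, 22 and 26 without control replicates 1, 2 and 3. For counts that moved so far, the range or the count without the array named is given. Genes written as having risen or fallen passed with each array left out in turn and under median, quantile and normexp scaling, unless the paragraph says otherwise.

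**Figure D1:**
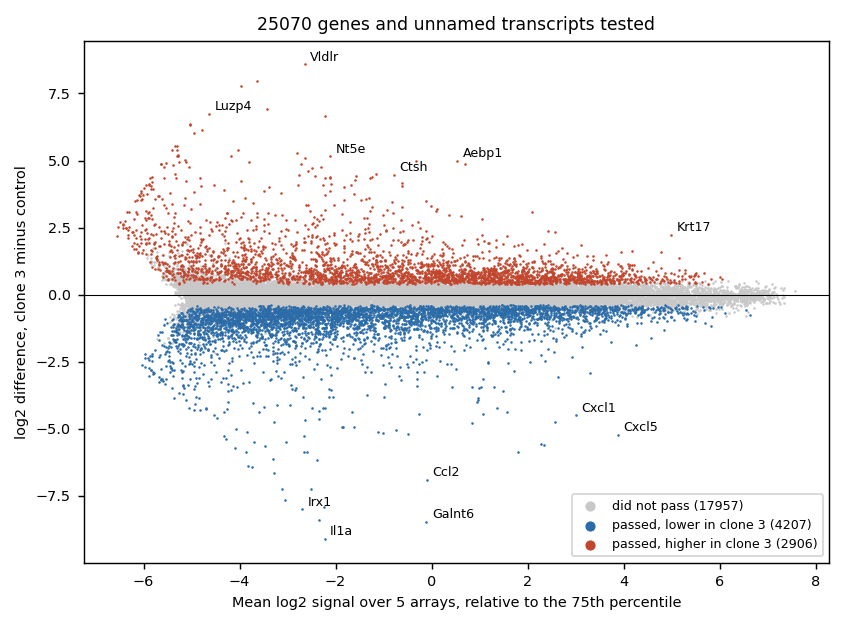
Difference between clone 3 and control (y, log2) against the mean level over the 5 arrays (x, log2 signal relative to the 75th percentile) for every gene and unnamed transcript tested. Red points passed as higher (2906), blue as lower (4207), and 12 named genes are marked. Where a gene was not well above background in a group, as Vldlr in the controls and Il1a in clone 3, the plotted difference rests on a background reading.

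Gtf2i, the edited gene, read 3.83, 3.88 and 3.78 on the control arrays and 3.22 and 3.24 in clone 3. It was lower by 0.60 log2 (difference -0.60, SE 0.12, adjusted p = 0.0115), and its call was lost without either clone 3 array. A probe of this kind does not read a point mutation, so the level checks nothing about the edit. Gtf2ird2, a relative of Gtf2i beside it in the genome, rose from 0.78, 0.92 and 0.97 to 1.59 and 1.71 (difference 0.76, adjusted p = 0.00733). Gtf2ird1, the third member, differed by -0.03 (adjusted p = 0.903). In the list of TFII-I genes and their neighbours in the Williams region, 3 of 23 tested members were higher and 3 lower, with a median of -0.12 and with 1 lower without either clone 3 array.

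Some transcripts were well above background in a single group. Where every array of a group was not well above background, only a lower limit of the fold can be stated, computed against, on each array, the dimmest signal called well above background or the gene's own reading where that is higher. Luzp4, a leucine zipper protein gene, lay at -7.22, -7.91 and -6.85 in the controls and at -0.45 and -0.72 in clone 3, at least 31.4-fold higher. Rab29, a small GTPase of lysosome and Golgi traffic, was at least 12.2-fold higher, from -5.18, -5.72 and -5.11 to -1.76 and -1.68. In the other direction Serpina3f, a protease inhibitor, went from 1.24, 1.23 and 0.59 to -7.08 and -7.71, at least 89.9-fold lower, with -4.77 log2 on a second probe. Wfdc2, a secreted whey acidic protein, went from -0.27, -0.27 and -0.25 to -6.09 and -6.15, at least 37.0-fold lower. Genes of this kind were picked by being above background in a single group, so the gap between the groups follows from the choice. Of 25070 tested, 307 transcripts were above background on both clone 3 arrays and on none of the control arrays, and 448 the reverse. Of these, 248 were called higher and 399 lower, while 28.4% of all tested were called in either direction. The direction of these calls follows from how the transcripts were picked, and the 2 counts rest on unlike numbers of arrays.

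Among genes with a symbol well above background on all 5 arrays, Galnt6, which starts mucin-type O-glycans, showed the largest difference. Its levels were 3.27, 3.18 and 3.39 in the controls and -5.22 and -5.15 in clone 3 (difference -8.47, 354-fold lower, adjusted p = 1.95e-06), while a second probe above background gave -5.32. The clone 3 readings lay close to the dimmest signals called well above background on those arrays, -5.4 and -5.544, so the fold is imprecise. Serpinf1, which encodes an antiangiogenic secreted protein, fell from 0.10, 0.39 and 0.58 to -4.72 and -4.42 (difference -4.93), with -3.35 on a second probe. Tbkbp1, an adaptor of the kinase TBK1, rose from -4.38, -4.53 and -4.72 to -0.12 and -0.06 (difference 4.46, 22-fold). Slx, of a multicopy X-linked family, rose from -4.14, -4.67 and -4.35 to 0.36 and 0.34 (difference 4.73, 26.6-fold). Its probe may read several near-identical copies.

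RNA of several inflammatory chemokines was lower. Of 13 chemokines tested, 7 were lower and 2 higher, with a median of -0.71. Without clone 3 replicate 1, 4 were higher. Cxcl1, a neutrophil chemokine, read 4.90, 4.79 and 4.71 in the controls and 0.22 and 0.39 in clone 3 (difference -4.49, adjusted p = 1.36e-05). Ccl20, the ligand of Ccr6, fell from -0.99, -0.81 and -0.73 to a level not well above background, -6.38 and -6.27, at least 24.7-fold. Cx3cl1, a membrane-bound chemokine, fell from -0.73, -1.07 and -0.90 to -4.10 and -3.67 (difference -2.99). The other direction was taken by Cxcl10, an interferon-induced ligand of Cxcr3, which was not well above background in the controls (-6.72, -7.40 and -7.34) and lay at -2.80 and -2.52 in clone 3, at least 7.46-fold higher. Ccl5, a chemokine that draws T cells, rose from -2.76, -3.04 and -3.06 to -0.67 and -0.66 (difference 2.29). These genes were preset or named for their large differences, so a gap between the groups is no further result.

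Promoter letters of these genes are shown because the chemokines moved in both directions. The sequences are RefSeq's of GRCm38.p6, 5′ to 3′ on the gene's strand, from the 250 bases before the start, with every match in capitals. The NF-kB letters searched were GGGNNNNNCC on both strands, present in 48.7% of the 27025 genes in the promoter table, so a match to them is common. Of the 9 tested chemokines in the table, 5 hold them. None of the matches shown here or further on overlaps a match to another motif searched.
Ccl20, chr1:83116651-83116730, plus strand: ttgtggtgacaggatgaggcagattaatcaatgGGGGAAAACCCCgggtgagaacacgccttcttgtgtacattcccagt
Cxcl1, chr5:90891140-90891219, plus strand: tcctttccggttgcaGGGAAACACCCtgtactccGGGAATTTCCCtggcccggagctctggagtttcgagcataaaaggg
Cxcl10, chr5:92348948-92349027, minus strand: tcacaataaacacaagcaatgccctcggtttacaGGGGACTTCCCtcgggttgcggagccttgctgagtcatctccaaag

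NF-kB and Toll-like receptor genes were lower more than higher, with 15 of 45 tested members lower, 5 higher and a median of -0.32. With 1 array left out, 11 to 14 were lower, fewest without clone 3 replicate 1, and 2 or 3 higher, fewest without either clone 3 array. Nfkbia, the inhibitor that NF-kB induces against itself, fell from 3.49, 3.32 and 3.35 to 1.85 and 1.95 (difference -1.49, adjusted p = 0.000543). Relb, the subunit of the noncanonical pathway, fell from 2.58, 2.66 and 2.40 to 1.54 and 1.46 (difference -1.05). Traf1, an adaptor of TNF receptors, fell by 2.44 log2, Nfkbiz, a nuclear cofactor, by 1.97 and the intracellular sensor Nod2 by 1.79. Birc3, an inhibitor of cell death, went to a level not well above background, at least 4.81-fold lower. Tlr2 fell by 1.27 log2 and Tlr3, the sensor of double-stranded RNA, rose by 2.26, from -2.47, -2.08 and -2.72 to -0.24 and -0.08. Tnfaip3, a brake on the pathway, was lower by 0.72 log2 (difference -0.72), a call lost without clone 3 replicate 1 (adjusted p = 0.0511).

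Cytokine genes went both ways. Of 28 tested, 12 were higher and 7 lower, with a median of 0.23, and with 1 array left out 7 to 10 were higher, fewest without clone 3 replicate 1. Tslp, an epithelial cytokine that acts on dendritic cells, rose from -4.72, -5.31 and -5.06 to -0.92 and -1.43 (difference 3.85, 14.4-fold), with 2 of 3 control arrays well above background. Il34, a ligand of the Csf1 receptor, rose by 1.56 log2, Il18 by 1.38 and Lta, a ligand of the TNF family, by 1.73. Csf3, the granulocyte factor, fell from -1.59, -1.14 and -1.47 to -2.83 and -3.04 (difference -1.53). Il6 and Il33 were not bright enough to be tested, and Csf1 differed by -0.17 (adjusted p = 0.313). Receptors of cytokines and chemokines were lower for 14 and higher for 5 of 43 tested, with a median of -0.10 and with 8 to 12 lower when 1 array was left out, fewest without clone 3 replicate 1. Il1r1, the signalling receptor of interleukin 1, fell by 0.90 log2, the oncostatin receptor Osmr by 0.93 and Il17re by 1.43. Il4ra fell by 1.55 log2 on its brightest probe and by 0.20 on another. Csf2ra, the alpha chain of the GM-CSF receptor, was at least 8.53-fold higher, from -6.69, -7.86 and -7.40 to -2.38 and -2.55.

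Complement and coagulation genes were lower for 8 and higher for 4 of 23 tested, with a median of -0.22, and 2 to 4 were higher with 1 array left out, fewest without either clone 3 array. Plau, the urokinase that activates plasminogen, fell from 2.60, 2.46 and 2.63 to 0.59 and 0.46 (difference -2.04). Clu, which restrains the terminal complex, fell by 1.30 log2. C1ra, a protease of the first complement component, went to a level not well above background, at least 3.96-fold lower. Procr, the receptor of protein C, rose by 1.08 log2. Among genes of cell death, Casp1, which processes inflammatory cytokines, fell from -0.14, -0.27 and -0.03 to -2.27 and -2.07 (difference -2.02), Casp4 by 1.37 log2, and the pore proteins Gsdmd and Gsdme by 1.41 and 1.93. Pmaip1, a BH3-only activator of apoptosis, rose by 1.24 log2. Of the 37 tested members of the Bcl2 family and caspases 9 were lower and 7 higher, with a median of -0.05 that was 0.04 under median scaling. With 1 array left out 5 to 7 were lower, fewest without clone 3 replicate 1, and 2 to 6 higher, fewest without clone 3 replicate 2.

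**Figure D2:**
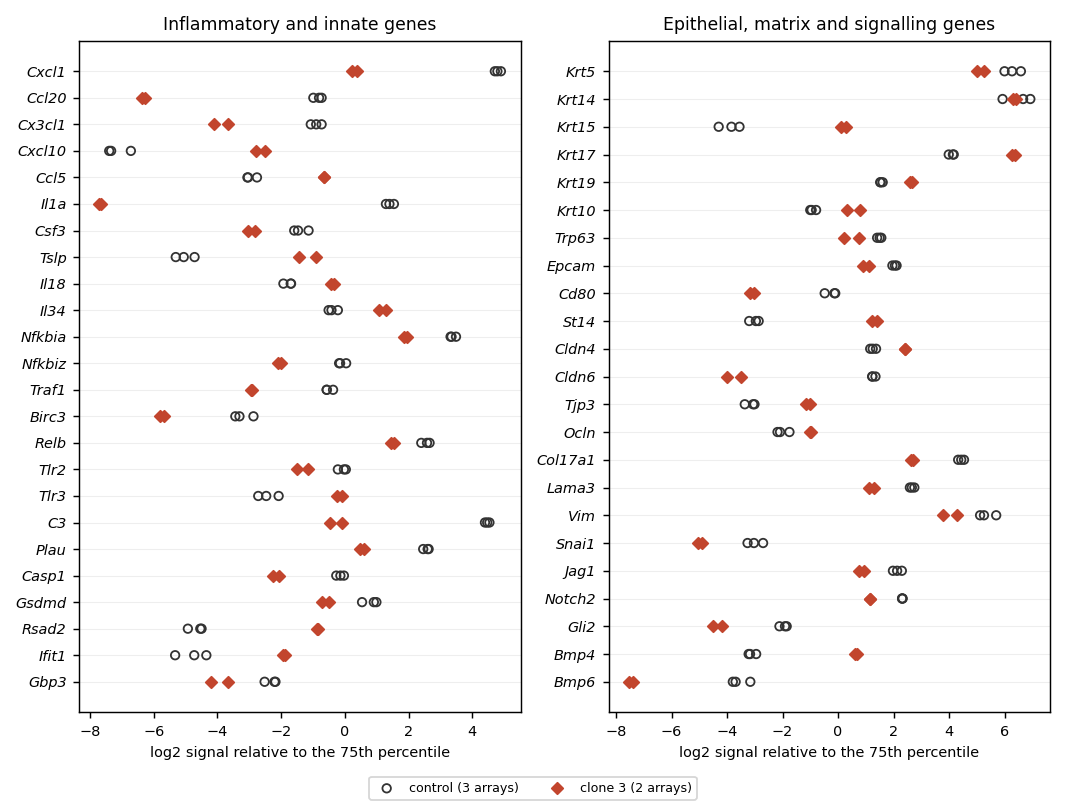
Level on each array (x, log2 signal relative to the 75th percentile) of 24 inflammatory and innate genes (left) and 23 epithelial, matrix and signalling genes (right). Open circles are the 3 control arrays and filled diamonds the 2 clone 3 arrays. Many of these genes were named for their differences, so a gap between the groups is no further result.

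Interferon-induced genes were mostly higher where they passed. Of 53 tested, 21 were higher and 9 lower, with a median of 0.24, and 11 to 18 were higher with 1 array left out, and 5 to 7 lower, fewest of each without clone 3 replicate 2. Rsad2, the antiviral protein viperin, rose from -4.93, -4.50 and -4.54 to -0.89 and -0.84 (difference 3.79, 13.8-fold), with 2.62 on a second probe. Ifit1, which binds foreign RNA ends, rose from -5.33, -4.73 and -4.35 to -1.94 and -1.89 (difference 2.89), with 2 of 3 control arrays above background. Isg15, a ubiquitin-like modifier, rose from 0.65, 1.15 and 0.11 to 2.34 and 2.50 (difference 1.78), and Ifi44 was at least 5.57-fold higher. The guanylate-binding Gbp3 fell from -2.52, -2.18 and -2.21 to -4.20 and -3.66 (difference -1.63), Isg20 by 0.97 log2 and Samd9l by 0.85.

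The core of the interferon-stimulated response element, GAAANNGAAA on either strand, stood in 3.5% of all 27025 genes' promoter windows and in 16 of the 43 tested members in the table (37.2%). It was held by 8 of 18 members that were higher, 2 of 7 that were lower and 6 of 18 that did not pass. The holders with the largest differences are printed to show the match and its place before the start.
Cxcl10, chr5:92349058-92349137, minus strand: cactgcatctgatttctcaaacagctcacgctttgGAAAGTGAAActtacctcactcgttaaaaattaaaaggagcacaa
Rsad2, chr12:26456528-26456607, minus strand: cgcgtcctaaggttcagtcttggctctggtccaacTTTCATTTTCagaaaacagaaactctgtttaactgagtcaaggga
Ifit1, chr19:34640769-34640848, plus strand: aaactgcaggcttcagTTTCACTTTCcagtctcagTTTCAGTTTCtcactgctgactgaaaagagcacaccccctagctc

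Antigen presentation genes showed 11 of 29 members of the class I list higher and 6 lower, with a median of 0.38. With 1 array left out 3 to 10 were higher, fewest without clone 3 replicate 2, and 2 to 4 lower, fewest without clone 3 replicate 1. H2-D1, a classical class I heavy chain, rose from 3.08, 3.23 and 3.19 to 4.20 and 4.28 (difference 1.07), and H2-Q7 by 0.95 log2. Probes of class I genes may read related genes of the cluster. H2-K1 differed by 0.45 (adjusted p = 0.253) and B2m, the shared light chain, by -0.29 (adjusted p = 0.286). Tapbpl, a peptide editor, fell by 1.55 log2. Runs of neighbouring genes described last hold 6 of the tested members, and the other 23 had 7 higher, 6 lower and a median of -0.06. Class II and costimulation genes were higher for 4 and lower for 4 of 17, with a median of -0.02 that was 0.07 under median scaling, and 2 lower without clone 3 replicate 1. H2-DMb1, a chain of the class II peptide exchanger, rose from -3.75, -3.97 and -3.35 to -0.09 and 0.10 (difference 3.70, 13-fold). Cd200, an inhibitory ligand, was at least 9.58-fold higher, and Cd80, a costimulatory ligand and marker of mature medullary cells, fell from -0.13, -0.10 and -0.48 to -3.04 and -3.17 (difference -2.87), with -4.11 on a second probe.

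Of 16 medullary markers tested 7 were lower and 3 higher, with a median of -0.31. Trp63, the factor that maintains stratified epithelium, fell on its brightest probe from 1.5, 1.56 and 1.41 to 0.22 and 0.74 (difference -1.01). Another Trp63 probe above background gave -0.21. The surface marker Epcam fell from 2.11, 1.96 and 2.05 to 0.90 and 1.13 (difference -1.03). Krt5 was lower by 1.15 log2 (difference -1.15, adjusted p = 0.00836), a call lost without clone 3 replicate 2, and Krt14 differed by -0.16 (adjusted p = 0.731). Spink5, a protease inhibitor of cornifying epithelium, was at least 3.46-fold higher. Cortical markers were higher for 4 and lower for 2 of 13, with a median of 0.23, and 0 were lower without clone 3 replicate 1. The summed signal of the medullary markers was 195 to 272 in the controls and 236 to 237 in clone 3, and that of the cortical markers 111 to 130 and 105 to 115. These sums are on the linear scale, so bright members such as Krt14 and Krt5 weigh most in the medullary one. Foxn1, the master factor of thymic epithelium, differed by -0.40 (adjusted p = 0.0742), and Psmb11, the thymoproteasome subunit of cortical cells, was not bright enough to be tested.

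Several other keratins rose. Of 15 tested 5 were higher and 2 lower, with a median of 0.15 and 1 lower without clone 3 replicate 2. Krt15, a keratin of basal progenitors, rose from -4.30, -3.84 and -3.55 to 0.09 and 0.30 (difference 4.10, 17.1-fold). Krt17, of stressed and appendage epithelium, rose from 3.99, 4.17 and 4.14 to 6.27 and 6.37 (difference 2.22). Krt10, of suprabasal layers, rose by 1.48 log2, Krt7 by 1.1 and Krt19 by 1.06, and Krt16 fell by 0.82. Junction genes were higher for 11 and lower for 5 of 37, with a median of 0.19, and 3 or 4 were lower with 1 array left out, fewest without control replicates 2 and 3 and clone 3 replicate 2. St14, the protease matriptase, rose from -3.20, -2.86 and -2.96 to 1.24 and 1.41 (difference 4.33, 20.1-fold). The junction and polarity genes Tjp3, Crb3, Cldn4 and Ocln rose by 2.06, 1.34, 1.15 and 1.02 log2. Cldn6, a claudin of embryonic epithelium, fell from 1.35, 1.23 and 1.24 to -3.51 and -4.01 (difference -5.03, 32.8-fold), and Cdh3 by 1.07 log2. Cdh1, the main epithelial cadherin, differed by -0.32 (adjusted p = 0.164).

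Mesenchymal genes were lower for 8 and higher for 2 of 21 regulators tested, with a median of -0.35. Between 2 and 6 were lower with 1 array left out, fewest without clone 3 replicate 2, and 1 higher without control replicate 2 or clone 3 replicate 1. Snai1, a repressor of epithelial genes, fell from -3.26, -2.70 and -3.03 to -4.91 and -5.06 (difference -1.99), and S100a4 by 0.97 log2. Vim, the intermediate filament vimentin, was at 5.70, 5.12 and 5.26 in the controls and 4.30 and 3.79 in clone 3 (difference -1.32, adjusted p = 0.00847). The calls of Vim and Snai2 (difference -0.64) were lost without clone 3 replicate 2. Tgfb3 rose by 1.16 log2. The 14 tested fibroblast markers were lower for 7 and higher for 3, with a median of -0.70, among them Pdgfra (difference -1.84), Fbln1 (-2.68) and Col5a2, which was at least 4.72-fold higher. Of 13 leukocyte markers 2 were higher and 0 lower (median 0.18), with 1 to 3 higher when 1 array was left out, fewest without control replicate 1 or 2 or clone 3 replicate 2, and 1 lower without control replicate 2. The T cell kinase Lck passed with each array left out (difference 1.13), while Cd68 (0.64) was lost without control replicate 1 or 2 and without clone 3 replicate 2. Of 6 endothelial markers 1 was lower, the VEGF receptor Flt1 (difference -1.20), with a median of -0.20, and 2 were lower without clone 3 replicate 1.

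Notch and Hedgehog genes were lower wherever they passed, 10 of 30 tested, with a median of -0.43. Jag1, a Notch ligand, fell from 2.30, 1.98 and 2.13 to 0.77 and 0.93 (difference -1.29), the ligand Dll1 by 1.43 log2 and the receptor Notch2 from 2.31, 2.31 and 2.33 to 1.16 and 1.15 (difference -1.16). Gli2, a transcription factor of the Hedgehog pathway, fell by 2.39 log2, and the Hedgehog ligand Dhh went to a level not well above background, at least 5.15-fold lower. The Notch target Hes1 was lower by 0.90 log2 (difference -0.90, adjusted p = 0.0295), but its call was lost without any 1 of the controls and without clone 3 replicate 1. Ptch1, a Hedgehog target, differed by -0.62 on its brightest probe (adjusted p = 0.297) and by 0.07 on another. No member was higher here, and 1 was under median and quantile scaling.

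TGF-beta and BMP genes were lower for 10 and higher for 6 of 42, with a median of -0.04 that was 0.06 under median scaling, and 6 lower without control replicate 3. Bmp4, a morphogen of thymus development, rose from -3.17, -3.22 and -2.95 to 0.62 and 0.67 (difference 3.76, 13.5-fold), while Bmp6 went from -3.69, -3.79 and -3.16 to a level not well above background, at least 3.8-fold lower. The BMP targets Id2 and Id3 fell by 2.12 and 1.35 log2, and Tgfbi, a secreted TGF-beta target, by 2.60. Fstl1, a secreted antagonist, rose by 1.89 log2. In Wnt signalling 5 of 32 were higher and 6 lower (median 0.13), with 2 higher without clone 3 replicate 1. Wnt6 was at least 6.78-fold higher and Wnt7b rose by 1.36 log2. Wnt4 fell from 1.43, 1.45 and 1.38 to -0.01 and -0.38 (difference -1.61), and Rnf43, which removes Wnt receptors, was at least 12.2-fold lower.

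Growth factor ligands were higher for 8 and lower for 11 of 39, with a median of -0.01 that was 0.09 under median scaling. Of the EGF receptor's ligands Btc rose from -3.46, -3.56 and -3.59 to -0.50 and -1.22 (difference 2.67) and Areg from -1.10, -1.32 and -1.52 to 0.88 and 0.59 (difference 2.05). Bdnf, a neurotrophin, and Gdf15, a stress-induced factor, rose by 1.74 and 1.69 log2. Fgf7, a keratinocyte growth factor, fell from 1.62, 1.86 and 1.92 to -1.57 and -1.73 (difference -3.45, 10.9-fold), and Gas6, a ligand of the receptor Axl, from 1.63, 1.51 and 1.36 to -3.11 and -2.75 (difference -4.43, 21.6-fold). Vegfc, the lymphatic growth factor, fell by 3.06 log2, Ptn by 2.88 and Gdnf by 2.52. Vegfa differed by -0.04 (adjusted p = 0.84) and Hbegf by 0.04 (adjusted p = 0.861). Of 32 receptors and binding proteins 5 were higher and 4 lower (median -0.06, 0.04 under median scaling), with Mst1r, the receptor of macrophage-stimulating protein, lower by 2.10 log2 (difference -2.10).

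Immediate early genes and feedback genes of the ERK pathway were split. Of 40 tested 14 were higher and 8 lower, with a median of 0.13, and 9 to 12 were higher and 3 to 7 lower with 1 array left out, fewest of each without clone 3 replicate 2. Klf2 rose from -1.39, -1.45 and -1.14 to 1.84 and 2.08 (difference 3.29, 9.76-fold). Spry1, an inhibitor of receptor tyrosine kinase signals, rose from -0.10, -0.06 and -0.08 to 2.75 and 2.73 (difference 2.82). The MAP kinase phosphatases Dusp1 and Dusp4 rose by 2.49 and 1.59 log2. Egr1 fell from -0.04, -0.19 and -0.09 to -1.59 and -1.39 (difference -1.38), Etv1 by 1.48 log2 and Ccn1 by 1.41. Fos was at -2.51, -2.62 and -3.41 in the controls and -1.44 and -1.27 in clone 3 (difference 1.49, adjusted p = 0.0105), a call lost without clone 3 replicate 2.

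Genes of DNA replication were lower by small amounts. Of 57 tested 21 were lower and 0 higher, with a median of -0.31, and 6 to 17 were lower with 1 array left out, fewest without clone 3 replicate 2. Under median scaling 17 were lower. Without the filter on background, when more transcripts were tested, 2 were lower. Orc1, of the origin recognition complex, fell from 0.72, 0.52 and 0.74 to -0.66 and -0.34 (difference -1.16), and Tyms, which makes thymidylate, from 4.38, 4.33 and 4.33 to 3.31 and 3.10 (difference -1.14). Mcm2 (-0.31, adjusted p = 0.0904), Pcna (-0.42, adjusted p = 0.0539) and E2f1 (0.54, adjusted p = 0.17) did not pass. DNA repair genes were lower for 18 and higher for 5 of 56 (median -0.33), with 10 to 13 lower when 1 array was left out, fewest without control replicate 3, and 0 to 3 higher, fewest without clone 3 replicate 2. Median scaling left 13 repair genes lower, and dropping the filter left 6 lower and 0 higher. Xrcc2, of homologous recombination, fell by 1.22 log2 and lies in a run of neighbouring genes that were lower together. Mitotic genes were lower for 12 and higher for 2 of 55 (median -0.14), with 4 to 6 lower when 1 array was left out and 0 higher without clone 3 replicate 2. The lowest count of lower genes came without control replicate 1 or 2 or clone 3 replicate 2. Under median scaling 7 mitotic genes were lower and 4 higher, with a median of -0.04. Spc24, of the kinetochore, fell by 1.47 log2 and the phosphatase Cdc25b by 1.06. Cyclins and growth arrest genes were higher for 7 and lower for 1 of 26 (median 0.17), with 2 to 4 higher when 1 array was left out, fewest without clone 3 replicate 2. Ccng2 and Cdkn2d, inhibitors of the cell cycle, rose by 0.95 and 0.90 log2, and Ccnd1 and Myc differed by -0.12 and -0.19 and did not pass. Targets of p53 were higher for 9 and lower for 7 of 42 (median 0.06), with 2 to 5 higher when 1 array was left out, fewest without clone 3 replicate 1. Median scaling gave 14 of these targets higher and 5 lower, with a median of 0.15. Gadd45g rose by 2.37 log2 and Ak1 fell by 3.06.

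The E2F letters TTTNGCGC stood in 1.3% of the 27025 genes' promoter windows and in 6 of 48 tested replication genes in the table (12.5%), 3 of the 19 lower and 3 of the 29 that did not pass. The 3 lower holders are printed. Besides Orc1 these are Pola1, of DNA polymerase alpha, and Rfc3, of the clamp loader, named for the match alone. Pola1 differed by -0.72, a call lost without clone 3 replicate 2, and Rfc3 by -0.56 (adjusted p = 0.0153).
Orc1, chr4:108579392-108579453, plus strand: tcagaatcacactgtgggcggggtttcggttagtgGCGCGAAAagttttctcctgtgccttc
Pola1, chrX:93632251-93632328, minus strand: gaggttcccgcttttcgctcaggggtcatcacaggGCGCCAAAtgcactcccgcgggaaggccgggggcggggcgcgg
Rfc3, chr5:151651209-151651253, minus strand: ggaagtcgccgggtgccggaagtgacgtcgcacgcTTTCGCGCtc

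The title of the series names metabolic alterations. In glycolysis 6 of 36 were higher and 6 lower (median -0.15), with 3 or 4 lower when 1 array was left out, fewest without control replicate 2 or 3. Under median scaling 6 were higher and 3 lower, with a median of -0.06. Ldha (-0.09, adjusted p = 0.779), Pkm (0.05, adjusted p = 0.866) and Hk2 (-0.23, adjusted p = 0.322) did not pass. Eno3, the muscle enolase, rose from 3.18, 3.23 and 3.51 to 4.66 and 5.14 (difference 1.59), Aldoc by 1.28 log2 and Pdk4, which shuts pyruvate dehydrogenase, by 1.95. Slc16a1, a lactate carrier, fell by 0.79 log2. Subunits of oxidative phosphorylation were higher for 4 and lower for 5 of 76 (median -0.04, 0.06 under median scaling), with 0 to 2 lower when 1 array was left out, fewest without control replicate 3 or clone 3 replicate 2, and 2 higher without control replicate 2 or clone 3 replicate 2. With median scaling 7 subunits were higher and 0 lower. Enzymes of the pentose phosphate path and the TCA cycle were higher for 4 and lower for 3 of 33 (median 0.02), with 2 higher without either clone 3 array. Pcx, the pyruvate carboxylase, was among the lower (difference -0.96). Genes of glutamine, serine and one-carbon metabolism were lower for 11 and higher for 3 of 40 (median -0.16), with 3 to 6 lower and 0 to 2 higher when 1 array was left out, and fewest lower without clone 3 replicate 2. Under median scaling 6 of them were lower and 3 higher, with a median of -0.06. The glutamine carrier Slc1a5 fell by 0.99 log2. Cytosolic ribosomal proteins were lower for 3 and higher for 0 of 81 (median -0.09, 0.01 under median scaling), and 0 were lower without control replicate 3 or clone 3 replicate 2.

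In cholesterol synthesis 10 of 32 were higher and 4 lower (median 0.22), with 5 to 8 higher when 1 array was left out, fewest without clone 3 replicate 1, and 2 lower without clone 3 replicate 2. Dhcr7, the last step of the pathway, rose from -2.21, -1.94 and -1.82 to -0.69 and -0.63 (difference 1.33), Hsd17b7 by 1.01 log2 and Hmgcs1 by 0.95. The sterol exporter Abca1 rose from -3.99, -3.72 and -3.36 to -1.04 and -1.12 (difference 2.61), while Abcg1 fell from 0.89, 0.84 and 0.85 to -1.02 and -1.09 (difference -1.92). The sterol regulatory letters TCACNCCAC stood in 1.2% of the 27025 genes' promoter windows and in 1 of 23 tested members of the table, Hmgcs1.
Hmgcs1, chr13:119690179-119690257, plus strand: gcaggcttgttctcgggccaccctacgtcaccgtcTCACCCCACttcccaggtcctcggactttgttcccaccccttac

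Fatty acid synthesis and elongation had 7 higher and 8 lower of 33 (median 0.01, -0.06 under normexp), with 2 to 4 higher when 1 array was left out, fewest without clone 3 replicate 2. The desaturases Fads1, Fads2 and Fads3 fell by 0.99, 0.77 and 1.60 log2, and Dgat2, which makes triglycerides, by 1.39, while Fasn (-0.22, adjusted p = 0.244) and Scd1 (0.34, adjusted p = 0.0792) did not pass. In uptake and oxidation 9 of 36 were higher and 6 lower (median 0.16), with 2 to 6 higher when 1 array was left out, fewest without clone 3 replicate 2. Cpt1a, the entry step of mitochondrial oxidation, rose by 0.93 log2, the isomerase Eci1 fell from 3.79, 3.86 and 3.93 to 1.54 and 1.55 (difference -2.32) and the peroxisomal Acox2 by 1.85 on its brightest probe and 0.74 on another. Glutathione and NRF2 genes were higher for 6 and lower for 9 of 39 (median 0.04), with 3 higher without clone 3 replicate 2. Txnip, which inhibits thioredoxin and glucose uptake, rose from -1.29, -1.02 and -1.21 to 2.05 and 2.00 (difference 3.20, 9.2-fold), with 1.71 on a second probe, and Gstm2 fell by 2.04 log2. Hypoxia genes were higher for 6 and lower for 7 of 31 (median 0.03), and prostaglandin genes were higher for 5 and lower for 5 of 25 (median 0.03). Without clone 3 replicate 2, 3 hypoxia genes were lower and 3 prostaglandin genes higher. Pla2g7, a phospholipase, rose by 2.19 log2, and Ptgis, the prostacyclin synthase, fell by 4.12, with 1 of 2 clone 3 arrays above background and -3.05 on a second probe. Ptges, a prostaglandin E synthase, differed by -0.35 on its brightest probe (adjusted p = 0.148), whereas 2 other probes above background gave -3.15 and -2.44.

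Of 33 genes of the ATF4 and unfolded protein response 6 were higher and 4 lower (median 0.09), with 3 to 5 higher and 1 to 3 lower when 1 array was left out, fewest without either clone 3 array and without control replicate 3 or clone 3 replicate 2. Atf4 (0.17, adjusted p = 0.428), Hspa5 (0.14, adjusted p = 0.494) and Xbp1 (0.03, adjusted p = 0.875) did not pass, and Nupr1, a stress-induced nuclear protein, fell from 3.41, 3.33 and 3.46 to 1.81 and 1.82 (difference -1.58). The composite letters TGATGNAA stood in 3.9% of the 27025 genes' promoter windows and in 6 of 30 tested members in the table (20%). Vldlr, a lipoprotein receptor, had the widest difference of the holders, at least 260-fold higher, from -5.83, -5.71 and -6.68 to 2.43 and 2.59, and a second probe gave 7.01.
Vldlr, chr19:27216785-27216862, plus strand: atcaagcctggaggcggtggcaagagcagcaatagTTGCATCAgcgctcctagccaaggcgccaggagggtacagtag
Nupr1, chr7:126625538-126625615, minus strand: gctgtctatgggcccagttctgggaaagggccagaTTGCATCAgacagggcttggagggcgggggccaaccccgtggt
Asns, chr6:7693210-7693267, minus strand: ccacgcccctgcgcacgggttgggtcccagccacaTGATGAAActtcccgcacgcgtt

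Asns, the asparagine synthetase, was lower by 0.68 log2 (difference -0.68, adjusted p = 0.0232), a call lost without control replicate 3 and without either clone 3 array. Heat shock genes were higher for 10 and lower for 1 of 25 (median 0.13), and 0 were lower without clone 3 replicate 2. The small heat shock proteins Hspb2, Cryab and Hspb1 rose by 2.02, 1.84 and 0.92 log2 and the testis-enriched Hspa2 by 2.01, from -2.43, -2.35 and -2.58 to -0.40 and -0.49. Hsp90aa1 (0.04, adjusted p = 0.903) and Hspa1b (-0.10, adjusted p = 0.623) did not pass. Lysosomal genes were higher for 14 and lower for 2 of 45 (median 0.27), with 8 to 11 higher when 1 array was left out, fewest without clone 3 replicate 2, and 1 lower without clone 3 replicate 1. Ctsc, which activates granule proteases, was at least 11.2-fold higher, the mannosidase Manba rose from -3.08, -2.97 and -2.98 to -0.79 and -0.88 (difference 2.18), and the protective protein Ctsa and the proton pump subunit Atp6v1a each rose by 1.21 log2. Lamp1, the main membrane protein of the organelle, differed by -0.02 (adjusted p = 0.907), and Tfeb by 0.00 (adjusted p = 0.992).

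Collagens (18.9% higher, 21.6% lower), integrins and laminins (18.6% and 23.3%) and adhesion genes (23.8% and 19%) passed in both directions. Over all genes with a symbol these shares were 15.4% and 14.1%, so passing both ways is not particular to these lists. Collagens were higher for 7 and lower for 8 of 37 (median 0.01), with the basement membrane chains Col4a5, Col4a3 and Col4a4 higher by 2.13, 1.49 and 0.95 log2. Col17a1, the hemidesmosomal collagen, fell from 4.54, 4.44 and 4.33 to 2.69 and 2.64 (difference -1.77), and Col7a1, the anchoring fibril, by 1.96 log2. Integrins, laminins and matrix glycoproteins were higher for 8 and lower for 10 of 43 (median 0.05), with 5 to 7 higher, fewest without either clone 3 array, and 6 to 8 lower, fewest without control replicate 3 or clone 3 replicate 1. Itga7, a laminin receptor, rose by 3.28 log2 and Thbs2 by 2.72. The laminin chain Lama3 fell by 1.46 log2 and tenascin, Tnc, by 1.43. Matrix-degrading proteases and their inhibitors were higher for 12 and lower for 6 of 39 (median 0.12). Mmp16 was at least 5.11-fold higher, while Adam19 and Adam8 fell by 2.69 and 1.87 log2. Adhesion genes were higher for 10 and lower for 8 of 42 (median 0.01), with Cadm1 higher by 2.34 log2 and Adgre5 at least 10.3-fold lower. Ly6 and other GPI-anchored antigens were higher for 9 and lower for 5 of 26 (median 0.08), with 5 higher without clone 3 replicate 2. Psca and Slurp1 rose by 2.10 and 1.52 log2, and Gpc3 was at least 7.11-fold lower. Contractile genes were higher for 11 and lower for 1 of 42 (median 0.10), with 5 or 6 higher when 1 array was left out, fewest without control replicate 1 or 2 or clone 3 replicate 1, and 2 lower without control replicate 3. Myh14, a nonmuscle myosin, rose by 1.13 log2 on its brightest probe and 0.03 on another, Flnc by 0.70, and Acta2 differed by 0.45 (adjusted p = 0.0859), with -0.17 on a second probe.

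Genes of positional identity were higher for 15 and lower for 8 of 52 (median 0.15), with 9 to 12 higher when 1 array was left out, fewest without clone 3 replicate 1. Hoxb8, a gene of axial patterning, rose by 1.31 log2. Shox2 fell from -1.01, -0.81 and -1.62 to -5.07 and -4.88 (difference -3.82), Hoxa10 by 4.66 log2 with 1 of 2 clone 3 arrays above background and -2.58 on a second probe, Msx1 by 2.05 and Tbx1, a factor of the pharyngeal pouches, by 0.84. Imprinted genes were higher for 9 and lower for 3 of 25 (median 0.24), with 5 to 7 higher when 1 array was left out, fewest without clone 3 replicate 1. Mest, expressed from the paternal copy, rose by 1.67 log2, H19 differed by -0.06 (adjusted p = 0.835), and Igf2 read 0.86 on its brightest probe, a call lost without control replicate 3, without either clone 3 array and under normexp, and 4.75 on another. Polycomb, DNA methylation and histone genes were higher for 9 and lower for 5 of 58 (median 0.10), with 3 or 4 higher, fewest without control replicate 2 or clone 3 replicate 2, and 1 to 4 lower, fewest without control replicate 3. Hdac11 rose by 1.91 log2 and Smyd2 fell by 0.72, while Ezh2 (-0.14, adjusted p = 0.663) and Dnmt1 (-0.42, adjusted p = 0.0895) did not pass. Of 13 tested Rhox, Mage and germline genes 2 were higher and 3 lower (median -0.08, 0.02 under median scaling), with Maged1 higher by 0.70 log2.

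**Figure D3:**
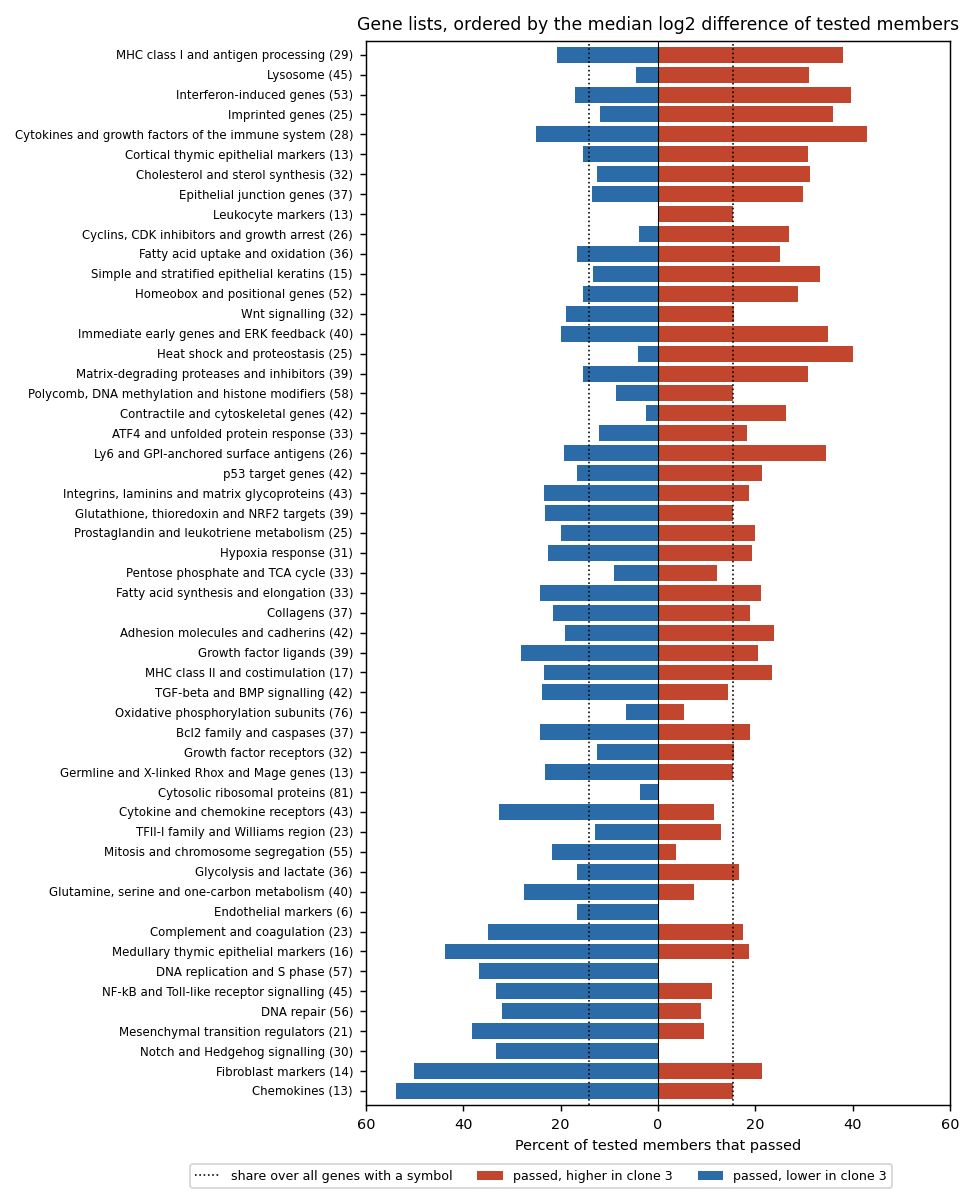
Share of the tested members of each of 53 gene lists that passed as higher (red, to the right) or lower (blue, to the left), with the number tested in brackets and the lists ordered by their median difference. Dotted lines mark 15.4% higher and 14.1% lower, the shares over all genes with a symbol, and chemokines stand at the foot with a median of -0.71.

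The order of genes along the chromosomes was also read. The 14616 tested genes with a place in the RefSeq table of GRCm38.p6 were read in windows of 40 neighbours, and windows whose median difference lay beyond 0.4 log2 were joined into runs, both settings chosen after seeing the data. Over 13836 windows the median ranged from -0.79 to 0.62 in clone 3, and that of a control array against the others from -0.16 to 0.28. The 4 lower runs held 452 genes, of which 47.3% were lower and 5.5% higher, and the 12 higher runs held 762 genes, of which 42.0% were higher and 6.2% lower. The 13402 genes outside the runs were higher for 14.3% and lower for 13.5%. Because the runs were chosen on these differences, the shares within them are a description, and how far such runs arise by chance was not tested.

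The longest lower runs went from Chd1l to Ap1ar (161 genes, median -0.46, 77 lower and 8 higher) and from Tmem243 to Lrpap1 (156 genes, median -0.52, 76 lower and 11 higher). The longest higher runs went from Sec22a to Krtap16-3 (140 genes, median 0.41, 66 higher and 9 lower) and from Bcl2l1 to Dhx35 (86 genes, median 0.42, 39 higher and 5 lower). On each clone 3 array the runs had medians of the same sign, and on the control arrays their medians lay between -0.12 and 0.07. The runs were chosen on the difference of these same clone 3 arrays, so their signs follow in part from the choice. Members of the lists that were lower and lie in the lower runs include Xrcc2, Tyms, Gstm2, Notch2, Mst1r, Il17re, Col7a1 and Slc16a1. Members that were higher and lie in the higher runs include Cd200, H2-DMb1, Cadm1, Procr, Thbs2, Fstl1, Tgfb3, Ctsa, Atp6v1a and Fos. Whether these genes would differ outside such runs was not tested.

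**Figure D4:**
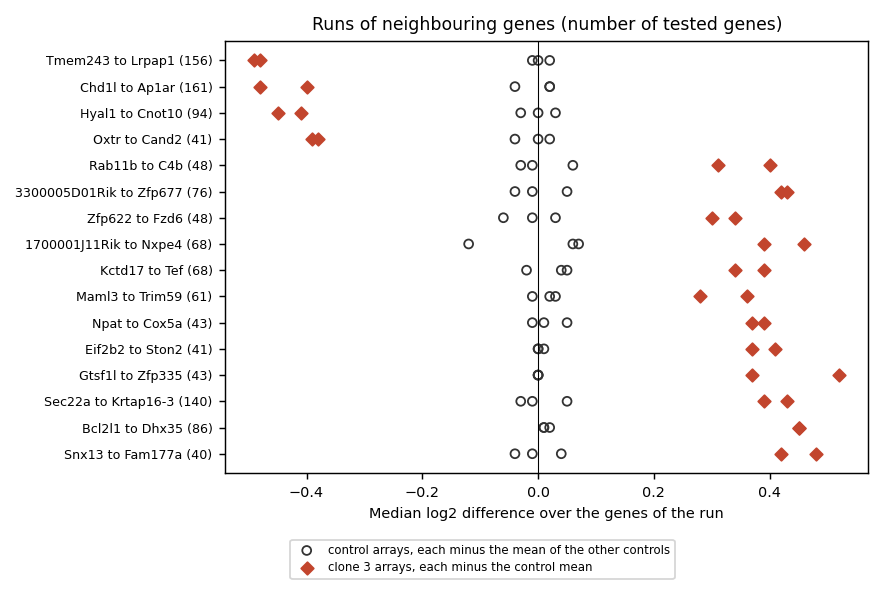
Median log2 difference (x) of the genes of each of 16 runs of neighbouring genes (y, first and last gene with the number of genes), shown for each clone 3 array against the control mean and for each control array against the other controls. Both clone 3 arrays lie away from 0 in every run, in part because the runs were chosen on their difference from the controls. The 3 control arrays lie between -0.12 and 0.07.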

How the data were processed

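RNA of TEC71 cells was read on 1-colour Agilent arrays of 62976 spots. The deposited values are linear intensities: per the file headers the processed signal came from Feature Extraction 11.5.1.1 (11.5.11 per the submitters' processing notes), already background-corrected. Probe coordinates in the headers name mm9 and were not used.

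Control spots (3671) and outlier spots (114 to 242 an array) were left out and spots of a probe averaged. The log2 intensity minus that of the array's 75th percentile over non-control spots was used. Of 56605 probes, 32994 were given a standard symbol because their record name matched a RefSeq transcript, and the brightest probe stands for a gene. Probes of other records, such as cDNA clones, count as unnamed transcripts even where they may belong to a named gene. Transcripts read well above background by all control arrays or by both clone 3 arrays were tested with limma 3.58.1 in R 4.3.3 (lmFit, eBayes, 3 against 2 arrays, 3 residual degrees of freedom), with Benjamini-Hochberg adjustment at 0.05 over all 25070. The scripts were tested on simulated data. The number of arrays limits the precision.

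The members and the 53 gene lists, some of which share genes, were chosen with earlier results of these data known. A gene alias was dropped from the fibroblast list after the values were read. Named genes are the TFII-I family, preset genes of each list, the 12 higher and 12 lower genes with the largest differences among those above background on all 5 arrays, the 8 on and 8 off genes with the largest lower limits, and up to 5 passing members of each list in each direction. Alternatives were median, quantile and normexp (offset 50) scaling, no filter, a stricter filter over all 5 arrays, averaged probes, eBayes with trend, array weights, a threshold of 0.01 and each array left out. Promoter letters were searched 250 bases before each start in RefSeq sequences of GRCm38.p6. Values of a few genes are not reported here.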

Additional observations from a re-analysis of the deposited data

How the results depend on the processing

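No paired analysis was possible because the labels give no replicate numbers, and those used here only name arrays. Against 7113 transcripts called (2906 higher, 4207 lower, 2619 at least 2-fold), leaving out 1 array gave 4049 to 5246 called, 1618 to 2116 higher, 2431 to 3300 lower and 2479 to 3108 at least 2-fold, with the lowest of each without clone 3 replicate 2. Without the filter, when more transcripts were tested, 3347 were called, 1369 higher and 1978 lower. At a threshold of 0.01 the calls were 3253, 1360 higher and 1893 lower. With normexp 947 passed at least 2-fold, and the cause was not tested. The other alternatives kept these counts within 1.5 times. Of 536 named genes tested, 445 passed, and 279 of those also passed with each array left out and under median, quantile and normexp scaling. Edem1 alone reversed, from -0.62 to 0.47 (adjusted p = 0.0402, limma) with the mean of all its probes, and another of its probes gave 1.55. The calls lost numbered 158 without the filter, 40 with normexp, 23 with median scaling, 20 with the mean of probes and 3 with quantile scaling. Medians of 9 lists changed sign under a scaling. Some list counts also moved by over 1.5 times under median scaling, not all of which are given above. Among these, lower genes went from 6 to 3 for MHC class I, from 5 to 3 for junctions and from 5 to 3 for Polycomb and histone genes. Higher chemokines went from 2 to 4. Transcripts not well above background have only a bound on their level.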

Other observations

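Transcripts given no standard symbol here were lower more often than higher in clone 3, an observation made after seeing the values. A symbol was given only where the probe's record matched a RefSeq transcript. The comparison is thus between kinds of probe record, and some of those without a symbol may belong to named genes. Of 10448 tested, 20.5% were lower and 6.2% higher with a median of -0.13, against 14.1% and 15.4% with a median of 0.01 for genes with a symbol. By mean level, the shares lower without and with a symbol were 24.2% and 14.6% between -4 and -2, 23.9% and 17.9% between -2 and 0, and 17.0% and 15.5% between 0 and 2. Between 2 and 10 the order turned, with 102 of 1321 lower without a symbol and 503 of 4363 with one. Transcripts with a mean level of -4 or below were left out of this split. Transcripts known from AK cDNA clones were lower for 29.4% and higher for 5.6% of 2380, with a median of -0.29.

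Some transcripts of the sex chromosomes were chosen after their values were seen. Xist, the RNA that coats the inactive X, was not well above background on the control arrays (-7.21, -7.91 and -6.83) and lay at -2.55 and -3.38 in clone 3, at least 6.03-fold higher (adjusted p = 0.000576, limma). Gm1993 differed by 4.11 log2 (adjusted p = 0.000132, limma), from -3.60, -3.82 and -3.80 to 0.78 and -0.03. Sly, a multicopy relative of Slx on the Y chromosome, differed by 2.90 log2 (adjusted p = 9.28e-05, limma), from -3.57, -3.82 and -3.40 to -0.76 and -0.63. This is the brightest of its 8 probes, the others are not given, and it may read related copies. The alternatives were not run for these 3 genes.

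Of 5207 genes with several tested probes, 35 had probes that passed in opposite directions, 1 of them at 2-fold or more. Among the named genes the brightest probe and another above background read -0.62 and 1.55 for Edem1, 0.25 and -1.59 for Mdm2, 0.60 and -1.04 for Cflar, and -1.49 and 0.09 for Pdk1.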
